A study of Mus musculus with 2 samples.

Results

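High-score cells, the subject here, are the 297 cells that took the largest share of their transcripts from 4 stress genes, out of 7430 cells of 2 single-cell libraries of mouse neural stem cells. The rule pooled both libraries and kept barcodes with at least 5000 unique molecular identifiers (UMIs, distinct captured transcripts) and at most 20% of UMIs from mitochondrially encoded genes, which left 7430 of 9882 barcodes. It then summed the UMIs of Trib3, Chac1, Ddit3 and Nupr1, divided by the cell's total, and took the top 4% of the pooled cells. The other 7133 cells are the comparison. The cells were chosen by the measured UMIs of these 4 score genes, so their values are given once as a description and support nothing.

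The cells came from the subventricular zone (SVZ), the germinal layer along the lateral ventricles of the adult brain, of C57BL/6 mice. The young library was made from mice aged 2 months and the aged library from mice aged 15 to 18 months, with the tissue of 5 mice pooled for each. The dissociated cells were held in a proliferation medium before loading on the 10x Genomics 3′ platform, so the values describe cultured cells of both ages. The series asks how transcription and the activation of neural stem cells differ with age. With 1 library per age there is no replicate, no test and no p-value, and age, culture and library cannot be told apart.

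The integrated stress response (ISR) is the pathway that joins several kinds of stress to a block of general translation. Kinases that sense amino acid shortage, unfolded protein in the endoplasmic reticulum (ER), double-stranded RNA or haem shortage phosphorylate the initiation factor eIF2, which lowers most protein synthesis while the mRNA of the transcription factor ATF4 is translated more. ATF4, with C/EBP partners and CHOP (the product of Ddit3), then raises genes of amino acid synthesis and uptake and of aminoacyl-tRNA synthetases, and feedback genes that let translation resume. Trib3, Chac1 and Nupr1 are known targets of this branch. In neural stem cells, the rate of protein synthesis is known to change with quiescence and activation.

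The young library gave 83 high-score cells of 3766, or 2.20% (exact Clopper-Pearson 95% interval 1.76 to 2.72), and the aged library 214 of 3664, or 5.84% (5.10 to 6.65). The share was 2.65 times as large in the aged library (2.05 to 3.46), where these and all later 95% intervals cover counting error only. Thinning each cell to 5000 UMIs, which left out no cell, gave a ratio of 2.35. Without any one score gene the ratio lay between 2.36 and 2.94.

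The score was continuous at its limit. The 3 last cells inside had 310, 307 and 307 score UMIs per 1000000, and the 3 first outside had 306, 306 and 305. The score was 0 in 63.8% of young and 55.6% of aged cells. A score of at least 100 per 1000000 was found in 7.94% of young and 15.4% of aged cells, and a score of at least 500 in 33 young and 98 aged cells, 3.05 times as large a share (2.04 to 4.68). At 1000 per 1000000 there were 8 young and 18 aged cells, a ratio of 2.31 (0.957 to 6.15). The share was larger in the aged library at each of these limits, and the few cells at 1000 leave that ratio the least precise.

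High-score cells were somewhat shallower than the other cells in both libraries, and the mitochondrial and ribosomal shares lay close between the sets. The median depth of high-score cells was 21261 UMIs in young and 23223.5 in aged cells, against 24219 and 25736.5 in the other cells. The mitochondrially encoded share had medians of 9.47% and 9.42%, against 9.30% and 9.25%. Ribosomal protein genes took 15.4% and 15.5%, against 14.4% in both sets of other cells. The libraries shared 4 barcodes, 2 of which passed the limits, and none was a high-score cell in both.

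Among the score genes, Nupr1 held most score UMIs in 36 young and 108 aged cells, and Ddit3 in 29 and 80. Trib3 led in 11 and 17 cells, and Chac1 in 7 and 9. All 4 genes had a UMI in 30 young and 91 aged cells, and only 1 of them in 3 and 9. Ddit3 stood at 221 UMIs per 1000000 (CPM) in young and 198 CPM in aged high-score cells, against 13.7 and 16.5 CPM elsewhere, as the selection required.

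The label could be compared with genes that the score did not use, in lists chosen with earlier results of these data known. A list of 69 genes known as targets or partners of ATF4, called the ATF4 programme below, joins 6 smaller lists that are taken up in turn. Each high-score cell gave a median of 1.11% of its UMIs to these genes in both libraries, against 0.374% in the other young and 0.383% in the other aged cells. The young high-score cells ranged from 0.534% to 1.58% and the aged from 0.295% to 2.07%, so the sets overlapped. Of the other cells, 0.489% in young and 1.19% in aged cells reached the median of the high-score cells.

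**Figure D1:**
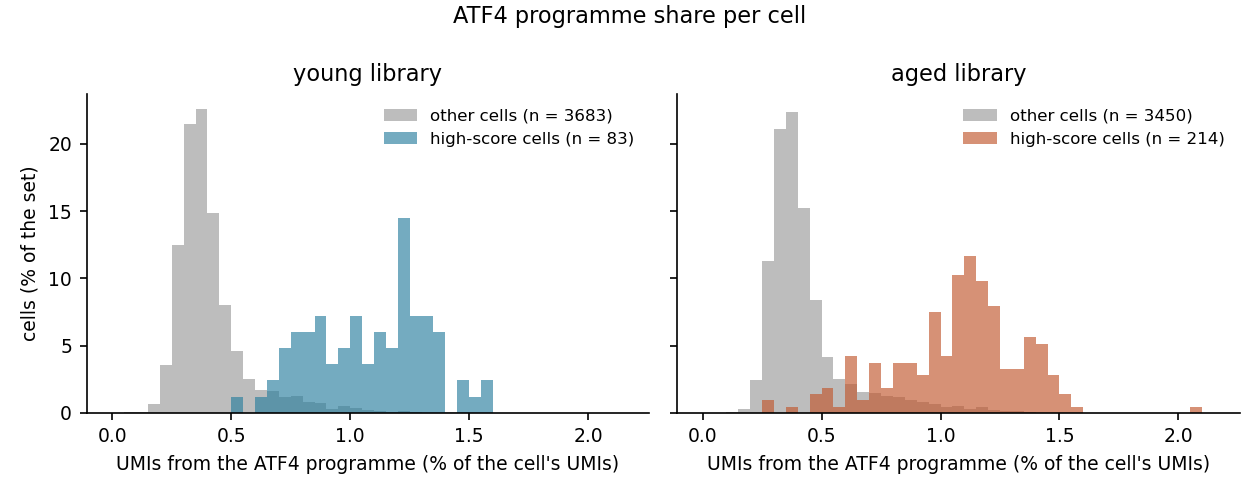
The bars give the share of cells, in percent of each set, by the percent of a cell's UMIs that came from the 69 genes of the ATF4 programme, for the young library (left) and the aged library (right). High-score cells (coloured) centre on medians of 1.11% in both libraries, while the other cells (grey) centre on 0.374% and 0.383% with a thin tail that reaches the coloured bars.

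Ranking all cells by the ATF4 programme, without the score genes, and taking the top 297 gave 191 of the same cells, 64.3% of each set. That ranking held 85 young and 212 aged cells, or 2.26% and 5.79% of each library, a ratio of 2.56 (1.98 to 3.34). The higher share in the aged library was also seen with this ranking, which shares no gene with the rule. Of its cells, 51 of the 85 young and 140 of the 212 aged were high-score cells. It is therefore not a separate measure of the difference between the libraries.

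To compare levels, UMIs were summed over the cells of each set within each library and given as CPM. A gene was called higher or lower in high-score cells when it was at least 1.5-fold apart in the same direction in both libraries, among the 8257 genes that reached 10 CPM in 1 of the sets in both libraries. Of these, 214 were higher (2.59%) and 305 lower (3.69%). Among the 63 programme genes that passed the filter, 47 were higher and 1 was lower. The median log2 ratio of CPM plus 1 was 1.40 for the programme and -0.03 for all genes compared. When cells were chosen in a random part of each cell's UMIs and values taken from the remaining part, 46 of 62 programme genes were higher.

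**Figure D2:**
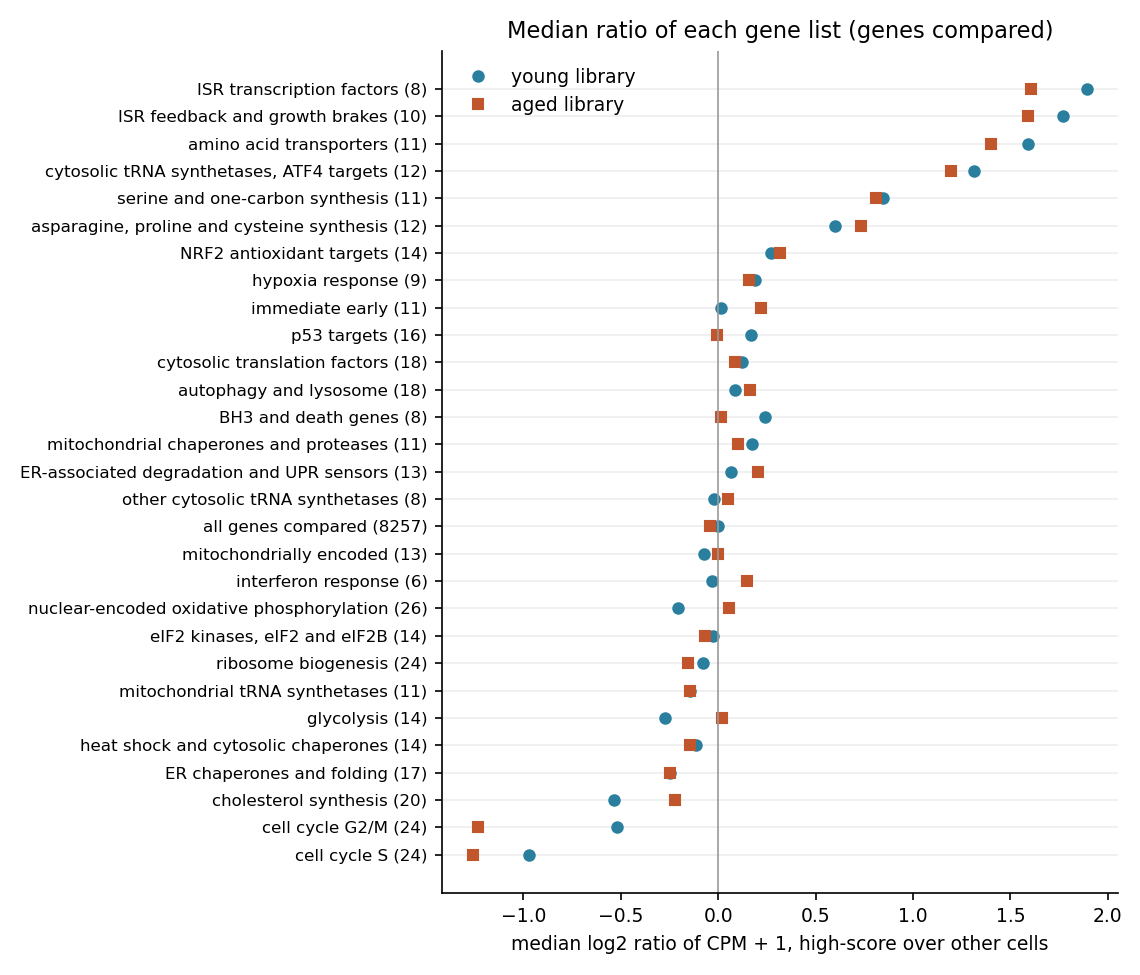
Points give the median log2 ratio of CPM plus 1, high-score over other cells, of each gene list with at least 5 genes compared, marker lists left out, in the young (circles) and the aged library (squares), with the number of genes compared in brackets. The 6 lists of the ATF4 programme lie highest of those shown, between 0.60 and 1.89, the ER chaperones lie below 0, and the S list lies lowest in both libraries.

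The transcription factors of the pathway were higher in 7 of 8 cases, with a median of 1.75. Atf4, the hub of the response, stood at 360 CPM in young and 367 CPM in aged high-score cells, against 111 and 126 CPM in the other cells. Its regulation is known to be largely translational, which these counts do not measure. Atf5, a relative of ATF4 that is also translated under stress, stood at 281 and 227 CPM against 49.0 and 48.2 CPM. Cebpb and Cebpg, which encode bZIP partners of ATF4, were at 103 and 94.0 CPM against 23.1 and 25.3 CPM, and at 116 and 132 CPM against 43.5 and 46.1 CPM. Atf3, a stress-induced repressor, reached 17.5 and 11.7 CPM against 1.71 and 1.73 CPM, and the related Jdp2 44.3 and 36.6 CPM against 9.46 and 10.8 CPM. For each of these genes both high-score sets lay above both sets of other cells.

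The sensors upstream were mostly not called. Of 14 genes for the eIF2 kinases, the subunits of eIF2 and its exchange factor eIF2B, and the regulators of the kinase GCN2, 1 was higher and none lower, with a median of -0.08. The exception was Eif2s2, the beta subunit of eIF2, at 805 and 884 CPM against 419 and 465 CPM. The kinase gene Eif2ak3 (PERK), which responds to unfolded protein, stood at 20.6 and 16.3 CPM against 16.4 and 15.6 CPM. Eif2ak4 (GCN2), which responds to uncharged tRNA, stood at 13.4 and 7.83 CPM against 12.2 and 11.0 CPM. Kinase activity is set by phosphorylation, which was not measured.

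Among the genes that feed back on translation or slow growth, 9 of 10 were higher, with a median of 1.71. Eif4ebp1, which encodes the repressor of cap-dependent translation 4E-BP1, stood at 598 CPM in young and 624 CPM in aged high-score cells, against 111 and 138 CPM. Sesn2, a brake on mTORC1, was at 97.4 and 102 CPM against 31.9 and 29.4 CPM. Ppp1r15a, which encodes GADD34, the stress-induced subunit of the eIF2 phosphatase, was at 41.7 and 38.2 CPM against 11.1 and 11.8 CPM. Its constitutive counterpart Ppp1r15b was the gene of the list that was not called, at 39.7 and 40.3 CPM against 33.4 and 33.7 CPM. The secreted stress hormone gene Gdf15 stood at 145 and 129 CPM against 43.5 and 29.1 CPM, and Vldlr, a lipoprotein receptor gene, at 130 and 120 CPM against 34.2 and 42.0 CPM. Fgf21, the other hormone of this response, was below the filter.

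The amino acid synthesis lists held the programme gene with the steepest ratio but had lower medians than the other programme lists. Cth, which encodes cystathionine gamma-lyase, the last step of cysteine synthesis, stood at 52.6 CPM in young and 55.4 CPM in aged high-score cells, against 2.30 and 2.96 CPM. It had the highest mean ratio of the genes that reached 50 CPM under the naming rule, which leaves out the score genes. Cth also stands in the feedback list, and lies at chr3:157894248-157925077, minus strand (GENCODE vM21, GRCm38). Asns, the asparagine synthetase gene, stood at 629 and 609 CPM against 118 and 133 CPM. The proline genes Pycr1 and Aldh18a1 stood at 27.8 and 33.9 CPM against 5.24 and 6.60 CPM, and at 125 and 124 CPM against 36.9 and 39.8 CPM. In all, 6 of 12 genes for asparagine, proline and cysteine synthesis and related steps were higher and none lower, with a median of 0.64. Glul, which encodes glutamine synthetase, was not called and lay in the other direction, at 36.1 and 43.7 CPM against 75.5 and 65.9 CPM.

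Of 11 genes for serine synthesis and folate-dependent one-carbon metabolism, 6 were higher and 1 lower, with a median of 0.83. The serine pathway genes Phgdh, Psat1 and Psph were each higher in both libraries. Psph, the final phosphatase, was the steepest of them at 357 and 333 CPM against 89.1 and 88.0 CPM. The mitochondrial folate enzymes Mthfd2 and Shmt2 stood at 258 and 266 CPM against 72.1 and 78.6 CPM, and at 157 and 158 CPM against 52.2 and 60.1 CPM. Their mitochondrial companion Aldh1l2 stood at 73.2 and 83.0 CPM against 11.3 and 14.1 CPM. The cytosolic form of serine hydroxymethyltransferase, Shmt1, was the lower gene, at 25.8 and 21.9 CPM against 46.7 and 41.4 CPM. The mitochondrial and the cytosolic form of this enzyme therefore lay in opposite directions in both libraries.

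Amino acid transporters were higher in 9 of 11 cases, with a median of 1.5. Slc7a11, the cystine importer, stood at 123 CPM in young and 103 CPM in aged high-score cells, against 10.4 and 13.4 CPM. Slc7a3, a carrier of cationic amino acids, stood at 46.9 and 45.6 CPM against 2.55 and 3.83 CPM. Slc3a2, the heavy chain that Slc7a11 and Slc7a5 need at the membrane, was the most abundant by UMIs at 610 and 683 CPM against 202 and 240 CPM. Slc7a6 and Slc1a5 were the pair that was not called.

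The synthetases that charge tRNA differed between the ATF4 targets and the rest. Of 12 cytosolic synthetase genes known as ATF4 targets, 11 were higher and none lower, with a median of 1.24. Eprs, the glutamyl-prolyl synthetase gene, stood at 968 and 878 CPM against 288 and 323 CPM, and Sars, the seryl synthetase gene, at 495 and 545 CPM against 136 and 163 CPM. Aars was not called, at 262 and 242 CPM against 168 and 174 CPM. Of the 8 other cytosolic synthetases, 2 were higher (Rars and Farsb) and 1 lower (Qars), with a median of 0.03. None of 11 mitochondrial synthetases was called in either direction, and their median was -0.14.

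**Figure D3:**
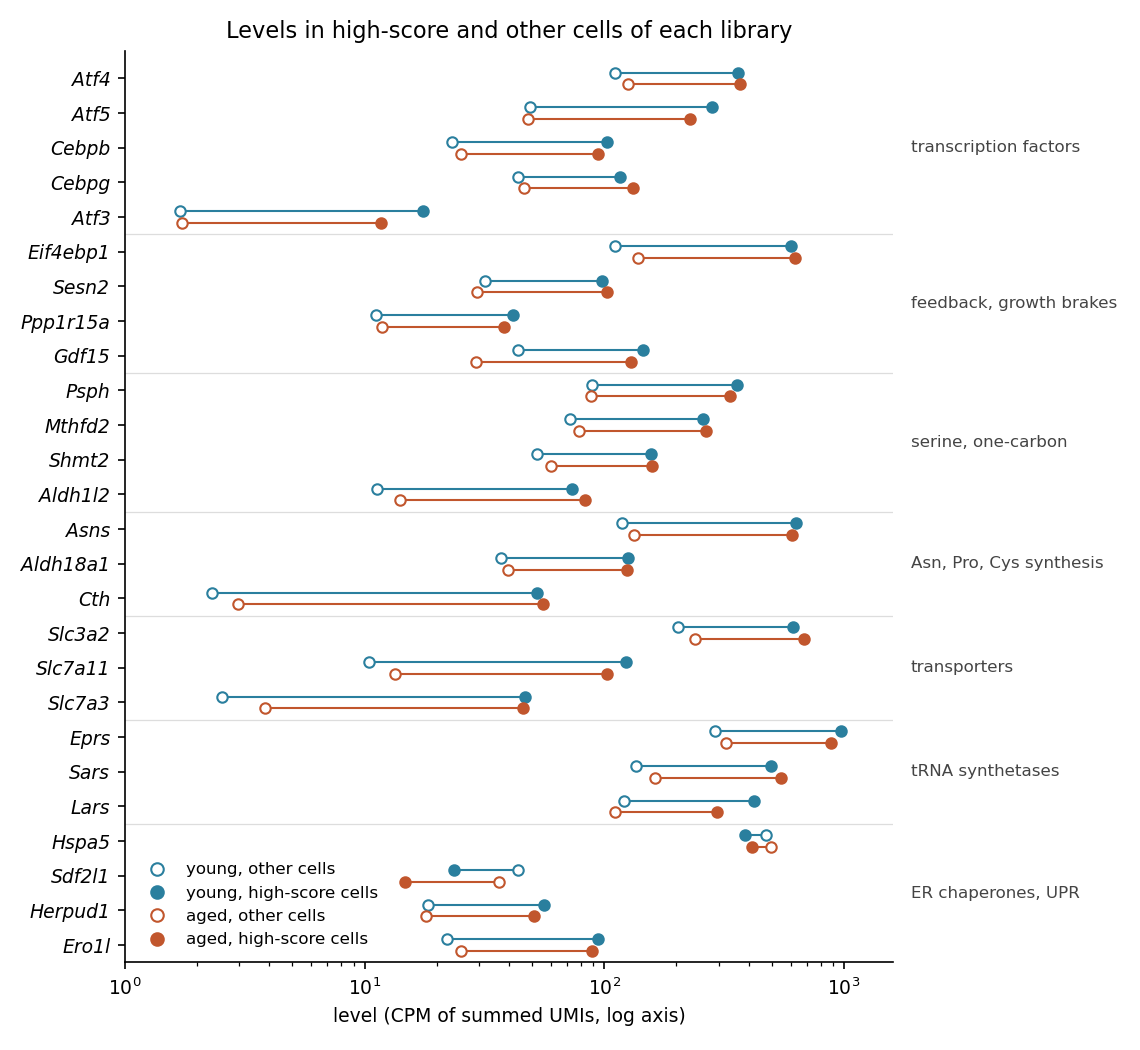
Each row gives a gene's level in CPM on a log axis, in other cells (open circles) and high-score cells (filled circles) of the young (blue) and the aged library (orange). In the programme genes every filled circle lies to the right of both open circles, as for Asns at 629 and 609 CPM against 118 and 133 CPM, whereas Hspa5 and Sdf2l1 lie in the other direction.

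The differences were graded. Cells were divided by their pooled score rank, with a score of 0 as its own class. Asns stood at 94.0 CPM in young cells with a score of 0, at 129 CPM in cells above 0 but below the top 10%, at 334 CPM between the top 10% and 6%, and at 735 CPM in the top 1%. The aged library ran from 95.3 CPM through 133 and 352 CPM to 706 CPM. Sars ran from 124 to 564 CPM in the young and from 136 to 625 CPM in the aged library. The cells just below the limit, between the top 6% and 4%, had 544 and 475 CPM of Asns, close to the 580 and 542 CPM of the cells just above it. The limit of 4% therefore lay within a continuous range of these genes, and the other cells include cells with intermediate levels.

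**Figure D4:**
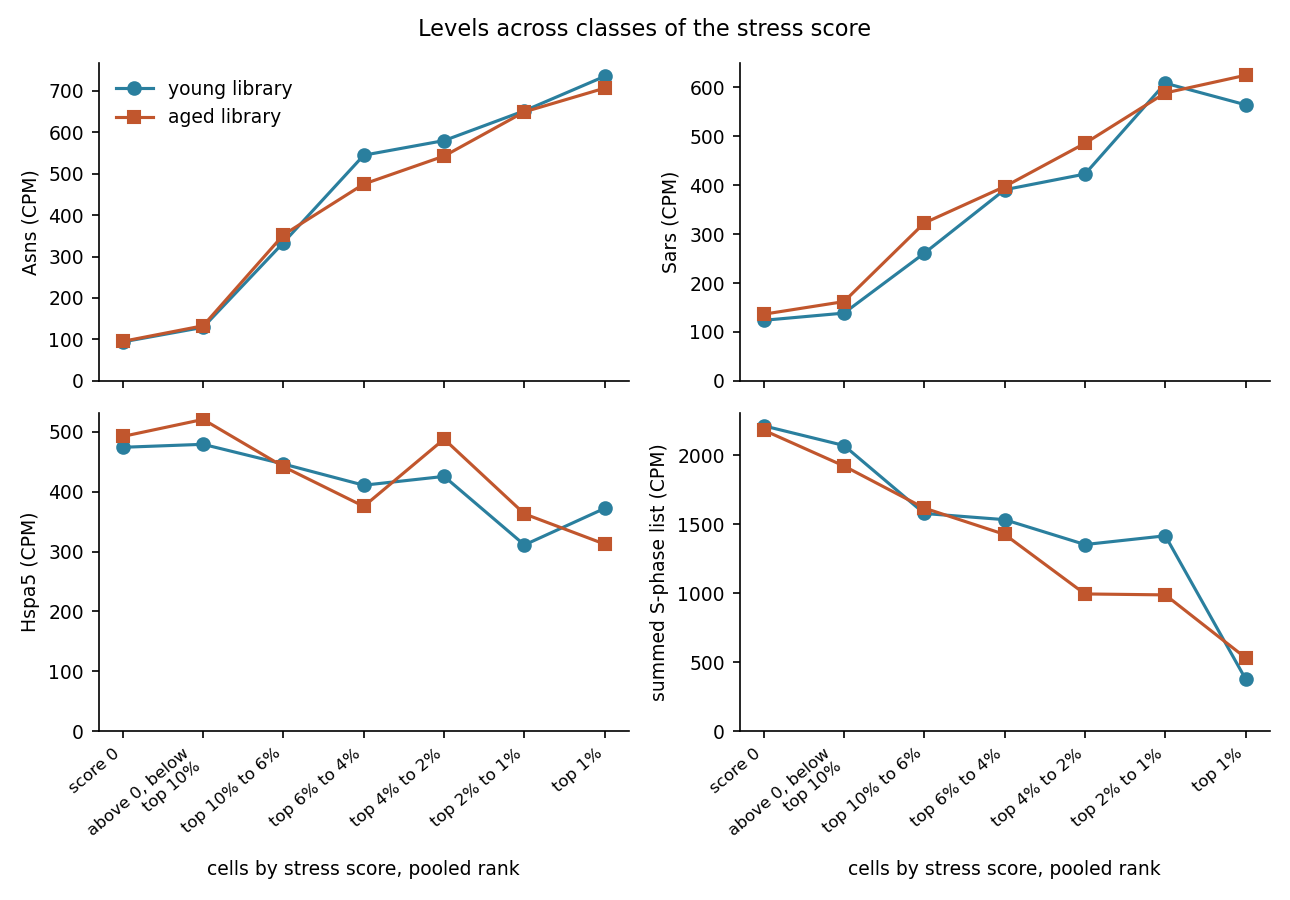
Lines give the level in CPM of summed UMIs for Asns, Sars, Hspa5 and the S-phase list (24 genes) across 7 classes of the stress score, in the young (circles) and the aged library (squares). Asns is higher in each next class, from 94.0 and 95.3 CPM at a score of 0 to 735 and 706 CPM in the top 1%, as is Sars except in the young top 1%, while the S-phase list goes from 2215 and 2183 CPM to 377 and 531 CPM.

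Some promoters of the called programme genes carry the letters of the composite C/EBP-ATF element, the DNA site at which ATF4 binds with a C/EBP partner. The motif TGATGNAA was searched on both strands in the 250 bases before RefSeq transcription starts (build GRCm38.p6). Of 36 called programme genes with a promoter in the table, 8 held it, or 22.2%, against 10.4% of 134 other genes called higher, 1.65% of 242 called lower and 1.91% of 6185 compared but not called. Over the whole table the share was 3.91% of 27025 genes, or 3.45% of promoters of this length. The programme was listed as known targets or partners of ATF4, so its share can follow from how the list was chosen. The share in programme genes that were not called was not counted. The sequences below show 30 bases around the element of these 8 genes, 5′ to 3′ on the gene's strand, with the element in capitals.
Asns: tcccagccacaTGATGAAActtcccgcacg
Slc7a11: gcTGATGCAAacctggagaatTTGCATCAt
Atf3: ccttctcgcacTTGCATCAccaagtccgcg
Pycr1: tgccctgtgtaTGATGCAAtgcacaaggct
Jdp2: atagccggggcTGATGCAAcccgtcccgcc
Vldlr: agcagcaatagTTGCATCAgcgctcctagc
Gars: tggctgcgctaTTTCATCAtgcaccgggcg
Tars: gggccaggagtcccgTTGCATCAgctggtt
The Slc7a11 window (chr3:50443652-50443681, minus strand) held the element 2 times, on opposite strands, the first beginning 66 bases before the start. The Asns window (chr6:7693214-7693243, minus strand) held TGATGAAA beginning 23 bases before the start, and the Atf3 window (chr1:191183425-191183454, minus strand) held TTGCATCA 110 bases before it. The windows of Pycr1 (chr11:120643833-120643862, minus strand), Jdp2 (chr12:85599372-85599401, plus strand) and Vldlr (chr19:27216809-27216838, plus strand) held it 103, 33 and 200 bases before the start, and those of Gars (chr6:55037960-55037989, plus strand) and Tars (chr15:11399659-11399688, minus strand) 30 and 15 bases before it. The score genes Chac1 and Nupr1 also held it, and Ddit3 and Trib3 did not within these 250 bases. A match is a description of the letters, and binding was not measured.

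Several of the named genes with the highest mean ratio were in none of the lists. Cox6a2, a muscle-type subunit of cytochrome c oxidase, stood at 58.2 CPM in young and 89.9 CPM in aged high-score cells, against 2.13 and 7.64 CPM. The cytochrome b5 reductase genes Cyb5r2 and Cyb5r1 stood at 56.2 and 70.5 CPM against 3.20 and 5.69 CPM, and at 87.6 and 77.9 CPM against 7.39 and 7.17 CPM. Pck2, the mitochondrial phosphoenolpyruvate carboxykinase gene, stood at 135 and 137 CPM against 18.8 and 26.4 CPM. Phf10, a subunit of a chromatin remodelling complex of neural progenitors, was at 190 and 207 CPM against 46.4 and 47.7 CPM, and the collagen receptor kinase gene Ddr2 at 59.8 and 63.6 CPM against 10.8 and 18.9 CPM.

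Other stress pathways were examined with lists of their own. Of 17 ER chaperones and folding enzymes, 1 was higher and 1 lower, and 15 had a mean ratio below 0, with a median of -0.26. Hspa5, which encodes the ER chaperone BiP and is the usual marker of the unfolded protein response, stood at 388 and 414 CPM in high-score cells against 474 and 497 CPM. Sdf2l1, a further ER stress gene, was called lower at 23.7 and 14.7 CPM against 43.6 and 36.3 CPM. The higher gene was the oxidase gene Ero1l, a known CHOP target, at 93.8 and 89.3 CPM against 22.0 and 25.2 CPM. Among 13 genes of ER-associated degradation and the sensors of the unfolded protein response, Herpud1, Sel1l and Atf6 were higher. Xbp1 was not called, at 54.6 and 49.3 CPM against 35.0 and 36.9 CPM, and its splicing cannot be read from 3′ counts.

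None of 14 heat shock and cytosolic chaperone genes was called, with a median of -0.17. In mitochondria, the chaperone gene Hspa9 and the protease gene Lonp1 were higher, at 617 and 659 CPM against 282 and 322 CPM and at 79.9 and 109 CPM against 43.8 and 43.5 CPM, while the other 9 genes of that list were not called. Of 14 targets of the antioxidant factor NRF2, Hmox1 and Srxn1 were higher. Hmox1, which encodes haem oxygenase, was at 83.5 and 105 CPM against 28.6 and 31.7 CPM. Of 18 autophagy and lysosome genes, Sqstm1 and Map1lc3a were higher.

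Of 16 targets of p53, Gadd45a and Bbc3 were higher and the rest were not called. The list's median was 0.12. Cdkn1a, which encodes the cell cycle inhibitor p21, stood at 552 and 486 CPM against 425 and 413 CPM. Bbc3, which encodes the death-promoting protein PUMA, was at 52.6 and 34.7 CPM against 15.6 and 13.3 CPM, and was the only called gene of 8 compared from the list of BH3 and death genes. Of 9 hypoxia genes, 4 were higher, namely Vegfa, Slc2a1, Ddit4 and Ero1l, and the last pair also stand in the stress lists above. Cholesterol synthesis genes had a median of -0.40, with 19 of 20 below 0, 2 called lower and none called higher. By library their medians were -0.53 in young and -0.22 in aged cells.

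Among the lists, those of S phase and G2/M held the most genes lower in high-score cells, though most of the 305 lower genes were in no list. Of 24 S-phase genes, 22 were lower and none higher, with a median of -1.16, and of 24 G2/M genes 9 were lower and none higher, with a median of -0.92. Tyms, the thymidylate synthase gene, stood at 46.4 and 34.7 CPM against 122 and 105 CPM. Gins2, a part of the replicative helicase, stood at 28.3 and 15.3 CPM against 59.8 and 60.8 CPM, and the helicase subunit gene Mcm3 at 60.8 and 51.9 CPM against 136 and 126 CPM. The G2/M genes were further apart in the aged library, with a median of -1.23 against -0.52 in the young, and this difference was not tested. Mki67, the proliferation marker, stood at 322 CPM in young and 164 CPM in aged high-score cells, against 459 and 490 CPM. Outside the cycle, the peptide gene Apln stood at 34.5 and 23.9 CPM against 99.99 and 57.7 CPM and the Notch target Hes5 at 37.6 and 32.1 CPM against 110 and 74.7 CPM.

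Cells were placed in 4 classes, above or below the pooled median share of UMIs from the S list and from the G2/M list. The class low in both held 62.7% of young (51.3 to 73.0) and 76.6% of aged high-score cells (70.4 to 82.1), against 30.5% and 31.0% of the other cells. High-score cells were 4.43% of that class in the young (3.32 to 5.76) and 13.3% in the aged library (11.5 to 15.3). In the class high in both they were 1.06% (0.568 to 1.81) and 1.60% (0.966 to 2.49). In the class high in S only they were 0.704% (0.229 to 1.64) and 1.51% (0.692 to 2.84), from 5 and 9 cells. In the class high in G2/M only they were 1.97% (1.05 to 3.34) and 3.40% (2.14 to 5.10). The aged share was larger in all 4 classes, but the intervals of the libraries overlapped except in the class low in both. A difference between classes was not tested.

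**Figure D5:**
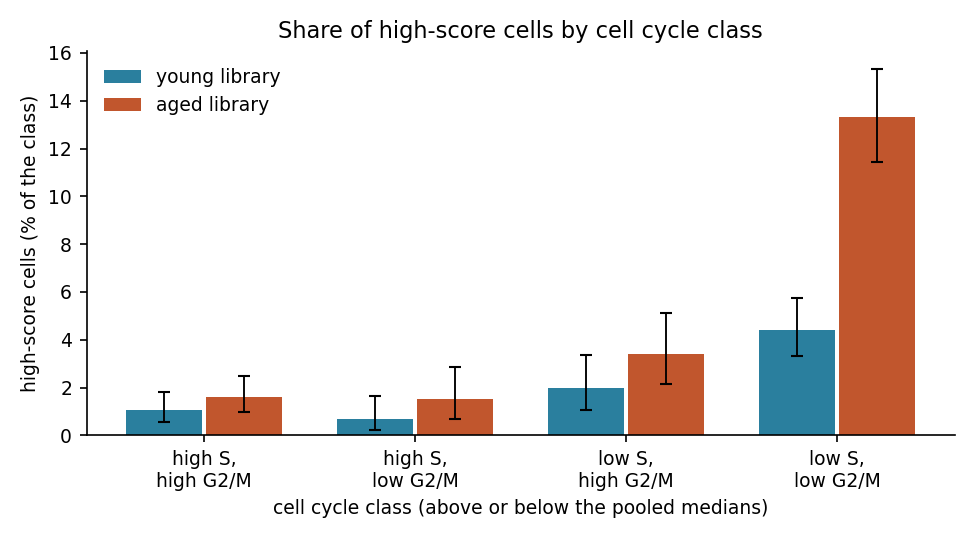
Bars give the share of high-score cells, in percent of each cell cycle class, in the young (blue) and the aged library (orange), with exact 95% intervals that cover counting error only. The class low in both lists stands highest, at 4.43% in young and 13.3% in aged cells.

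Asns was higher in high-score cells than in the other cells of each of the 4 classes in both libraries. In the high-score cells that were high in both lists, Asns stood at 513 CPM in young and 534 CPM in aged cells, against 115 and 111 CPM in other cells of the class, and Mki67 at 856 and 636 CPM against 782 and 806 CPM. In the class low in both, Asns stood at 669 and 624 CPM against 104 and 161 CPM. Weighting the other cells to the class makeup of the high-score cells kept 175 of the 214 higher genes and 58 of the 305 lower genes. The S and G2/M medians then came to -0.16 and 0.01, which follows in part from the weighting, since the same lists define the classes. Most higher calls were therefore also made at an equal mix of cycle classes, and most lower calls were not. Comparing only cells low in both lists gave 218 higher genes, 169 of them among the 214, and 263 lower genes, 83 of them among the 305. Within that class the S and G2/M medians of high-score against other cells were still below 0, at -0.58 and -0.68.

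Neural stem and progenitor markers were present, at levels mostly below those of the other cells. All 15 neural stem and progenitor markers had UMIs in both sets of high-score cells, and their summed level was 8922 and 7637 CPM against 10519 and 8733 CPM. Of the 14 compared, 11 had a mean ratio below 0, and 1, Hes5, was called lower. Vim, which encodes an intermediate filament, stood at 2079 and 1694 CPM against 2557 and 2052 CPM, and the fatty acid binding protein gene Fabp7 at 4605 and 3797 CPM against 5680.5 and 4329 CPM. Sox2 stood at 278 and 272 CPM against 252 and 273 CPM, Nes at 701 and 561 CPM against 639 and 618 CPM, and Egfr at 115 and 145 CPM against 150 and 177 CPM. Gfap, the astrocyte filament gene, had 0 UMIs in young and 3 in aged high-score cells, and was below 1 CPM in the other cells. Olig2 stood at 489 and 343 CPM against 515 and 431 CPM. Sox2, Nes, Egfr and Olig2 were thus present in every set, and Gfap was nearly absent from each.

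Markers of microglia, endothelium and red cells were at or near 0. The summed level of 11 microglia or macrophage markers was 0.515 and 0.196 CPM in high-score cells, that of 8 endothelial markers 3.09 and 1.96 CPM, and that of 5 red cell markers 0 in both. Of 11 neuroblast markers, Tubb3 was the one with enough UMIs to compare, and it was higher, at 34.0 and 44.5 CPM against 7.18 and 10.1 CPM. Dcx, the defining neuroblast gene, was below the filter. Some other lists had larger sums in every set, and a sum can rest on 1 gene. The summed astrocyte or quiescent stem cell list stood at 2713 and 3727 CPM against 3337 and 3957 CPM, the oligodendrocyte precursor list at 1545 and 1060 CPM against 1784 and 1380 CPM, the ependymal list at 1433 and 1580 CPM against 1750 and 1989 CPM, and the mature neuron list at 485 and 425 CPM against 445 and 431 CPM. Tuba1a alone gave 1427 and 1570 CPM of the ependymal sums in high-score cells, and Map2 453 and 388 CPM of the mature neuron sums. The ependymal gene Foxj1 stood at 1.03 and 4.50 CPM there, and the neuronal gene Rbfox3 at 0.515 and 1.17 CPM. The part of these markers in the results was not tested.

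High-score cells varied among themselves in which genes led. Aged cells led by Ddit3 had 71.1 CPM of Cth, and those led by Nupr1 50.4 CPM, and in the young library the values were 70.7 and 33.7 CPM. The median programme share lay between 0.966% and 1.23% whichever score gene led, in both libraries. It was lower in the few cells with UMIs of a single score gene, at 0.724% in 3 young and 0.602% in 9 aged cells, than in cells with all 4, at 1.22% and 1.17%. Across the 214 aged high-score cells, the serine list and the synthetase list had a Spearman rho of 0.50, and the ER chaperone and the synthetase lists one of 0.02. In the 83 young cells these were 0.58 and 0.03. The lists are shares of the same cell totals within 1 library, so these values only describe the cells.

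The last comparison set aged against young high-score cells. A gene was called when at least 2-fold apart, among the 8396 genes that reached 10 CPM at 1 of the ages. In aged high-score cells 61 genes were higher (0.727%) and 47 lower (0.560%), against 15 (0.179%) and 23 (0.275%) of 8359 genes in the other cells, which hold more UMIs. Of the 61 and the 47, 10 and 6 were also called in the other cells. None of 64 programme genes compared was called, and their median log2 ratio by age was -0.01. Their summed level was 10803 CPM in young and 10685 CPM in aged high-score cells. Cells of both ages were chosen with 1 pooled limit on a score that goes with the programme, so like levels per cell are in part set by that choice.

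Among the genes named by the rule, Ifitm3, an interferon-induced membrane protein gene, stood at 168 CPM in aged and 56.2 CPM in young high-score cells (2.98-fold, 2.44 to 3.68), whereas in the other cells it was at 152 and 202 CPM. Thy1, a surface glycoprotein gene, was at 79.7 and 27.8 CPM, and Chchd10, a mitochondrial protein gene, at 120 and 43.3 CPM. Wdfy1 stood at 56.8 and 13.9 CPM and Grk3 at 65.4 and 23.2 CPM. In the other cells, aged against young, Wdfy1 stood at 58.7 and 10.5 CPM, Grk3 at 49.6 and 21.0 CPM, Thy1 at 114 and 68.1 CPM and Chchd10 at 65.4 and 41.9 CPM. Ifitm3 is the gene of these 5 whose other cells lay in the opposite direction.

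In the lower direction, Rlbp1, a retinoid-binding protein gene, stood at 6.85 CPM in aged and 53.6 CPM in young high-score cells, and at 7.32 and 36.4 CPM in the other cells. Hmga2, a chromatin protein gene of young stem cells, was at 12.3 and 52.6 CPM, against 13.3 and 27.1 CPM. The mitotic kinase gene Aurkb stood at 21.5 and 53.1 CPM and the linker histone gene Hist1h1c at 33.1 and 72.2 CPM. Chl1 and Elavl4, of neural adhesion and RNA binding, stood at 24.5 and 58.2 CPM and at 28.4 and 63.9 CPM. In the other cells, aged against young, Chl1 stood at 32.0 and 66.3 CPM, Elavl4 at 22.7 and 33.0 CPM and Hist1h1c at 51.4 and 55.6 CPM. Chl1 and Elavl4 were thus lower in aged cells of either set. Aurkb is in the G2/M list. Among high-score cells low in both cycle lists, Hmga2 stood at 13.5 and 62.9 CPM and Ifitm3 at 194 and 62.1 CPM.

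As groups, the G2/M genes had a median log2 ratio by age of -0.70 in high-score cells, with all 24 below 0, and 0.10 in the other cells. Nuclear genes of oxidative phosphorylation had a median of 0.37 with 26 of 26 above 0, against 0.09 in the other cells, and cholesterol synthesis genes one of 0.37 with 19 of 20 above 0, against 0.12. Targets of p53 had a median of -0.44 with 14 of 15 below 0, against -0.24. The class low in both cycle lists held 62.7% of young and 76.6% of aged high-score cells, and its part in the G2/M values was not tested. The immediate early genes had medians of -0.59 and -0.56, so they lay lower in aged cells of either set. Among cells low in both cycle lists the medians were 0.36 for oxidative phosphorylation, 0.49 for cholesterol synthesis and -0.64 for p53 targets, and the lists that define that class turned, to 0.31 for G2/M with 9 of 11 above 0 and 0.12 for S. No gene of the oxidative phosphorylation, cholesterol or p53 lists passed the 2-fold limit itself.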

How the data were processed

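Gene expression was measured in 1 library of young and 1 of aged cells. The authors deposited raw counts of UMIs. Cell Ranger 3.0.2 and mm10 are named in the submitters' processing notes, and for the annotation they name nothing. A name table held 27645 of the 27998 identifiers, 1169 of them under a different symbol. Depth was 5864 to 62837 UMIs per high-score cell, and the kept cells of the young and the aged library held 1940303 and 5106565 UMIs in high-score cells against 92590376 and 94099496 in the other cells.

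UMIs were summed per cell set and library with Python 3.11.15 and numpy 2.4.6, given as CPM, and set against each other as log2 ratios after adding 1 CPM, which understates the change of low genes. Calls follow a rule of size: 1.5-fold in both libraries for high-score against other cells, and 2-fold for age, with at least 10 CPM. The score genes were left out. Intervals (scipy 1.17.1) are exact Poisson, Clopper-Pearson and conditional binomial intervals at 95%. No doublet caller was used, and leaving out the 5% deepest cells of each library is an alternative. The comparison was tested on simulated counts.

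Genes named are the 12 highest and the 12 lowest with at least 50 CPM, up to 4 members of each list, a fixed set of pathway genes and, for age, the 6 highest and 6 lowest. Mitochondrially encoded, ribosomal protein, pseudo-, Gm and Rik genes were left out, and some genes picked by these rules do not appear in the text. Further list members, and the genes outside lists in the closing section, were named after their values were seen. The members, lists and rules were chosen with earlier results of these data known. Promoters come from RefSeq (GRCm38.p6) and gene coordinates from GENCODE vM21.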

Additional observations from a re-analysis of the deposited data

Results flagged for a closer look

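The 4 score genes also had UMIs in barcodes that the limits left out. In the young library they stood at 28.3 CPM in 1315 barcodes with fewer than 5000 UMIs and at 34.7 CPM in 70 barcodes with more than 20% mitochondrial UMIs, against 23.9 CPM in the other cells that passed. In the aged library these values were 52.6 CPM in 1027 barcodes and 73.9 CPM in 40 barcodes, against 33.1 CPM. The other cells lack the cells with the highest scores of these same genes, while the left-out barcodes keep theirs. Whether the left-out barcodes stand above all passing cells therefore cannot be read from these values. The left-out barcodes hold few UMIs, and 95% Poisson intervals ran from 41.8 to 65.4 CPM and from 57.4 to 93.7 CPM in the aged library. In the young library they ran from 21.6 to 36.4 CPM, which holds the 23.9 CPM of the other cells, and from 24.7 to 47.5 CPM.

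A pair of genes was at least 1.5-fold apart between high-score and other cells in opposite directions in the libraries. Ppcs, a gene of coenzyme A synthesis, had a log2 ratio of -0.74 in young and 0.66 in aged cells, from 11 and 83 UMIs in high-score cells. Ifit2, an interferon-induced gene, had 0.69 and -0.74, from 37 and 42 UMIs. The difference between libraries was not tested.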

How the results depend on the processing

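The share of high-score cells, aged over young, lay between 2.35 and 3.08 over its 12 alternatives, and of 35 gene lists at least 32 kept their direction in every alternative. Counts of genes depended on the rule of size and on depth. Against 214 higher and 305 lower genes in high-score cells, the top 8% of cells gave 142 and 111, a minimum of 50 CPM 98 and 90, no minimum 348 and 499, and 2-fold 102 and 51. The lower genes numbered 482 in the top 2%, 189 with the top 4% taken per library, and 147 with the other cells weighted by cycle class, where the G2/M median (0.0064) and Tk1 (0.00997) changed sign. Against 61 higher and 47 lower genes by age, counts were 149 and 160 in the top 2%, 93 and 91 without Ddit3 in the score, 94 and 75 with at most 10% mitochondrial UMIs, 284 and 290 after thinning to 5000 UMIs, 137 and 118 with selection and values from separate random parts of each cell's UMIs, 14 and 10 with a minimum of 50 CPM, 342 and 317 with no minimum, and 292 and 422 at 1.5-fold. Lower genes by age numbered 20 in the top 8%, 74 with the top 4% per library and 73 with 0.1 CPM added. Keeping only cells low in both cycle lists, an alternative chosen after seeing the data, gave 121 and 109 by age. The cause of these changes was not tested, beyond the fewer genes or cells that a stricter rule leaves. Among 165 named genes, 674 of the values under alternatives moved and 2460 stayed within counting error. A change of sign was counted only for genes called higher or lower, and there was 1.

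High-score cells of the young library number 83, which limits every value by age, and intervals cover counting error only. Thinning gave 362 cells because of tied scores. No paired analysis was possible because each age has 1 library. The count intervals do not hold the spread between mice or cultures.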

Other observations

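Several genes of the neuronal cytoskeleton, singled out after their values were seen, were higher in high-score cells of both libraries. Map1b, a microtubule-associated protein gene, stood at 194 CPM in young and 235 CPM in aged high-score cells against 86.2 and 108 CPM in the other cells. Stmn3 and Stmn4, which encode stathmin-family regulators of microtubules, stood at 264 and 248 CPM against 144 and 147 CPM, and at 12.4 and 16.1 CPM against 6.75 and 8.32 CPM. Mllt11, a gene of developing neurons, was at 66.5 and 51.7 CPM against 32.9 and 27.2 CPM. Arhgef2, which encodes a microtubule-bound signalling protein, stood at 176 and 171 CPM against 43.8 and 50.7 CPM. With Tubb3 these are 6 called genes, and no list of them was tested. Other genes of this kind were not higher. Tuba1a was not called, at 1427 and 1570 CPM against 1738 and 1977 CPM. Map2 was not called either, at 453 and 388 CPM against 417 and 395 CPM, and Nefl and Stmn2 were below the filter.

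The steroid dehydrogenase gene Hsd17b1 stood at 27.3 and 36.6 CPM in high-score cells against 0.680 and 1.30 CPM, 40.1-fold (27.3 to 58.8) in the young and 28.2-fold (22.4 to 35.8) in the aged library. Xpot, which encodes the exporter of tRNA from the nucleus, stood at 121 and 112 CPM against 41.7 and 45.5 CPM, and Serpinh1, a collagen chaperone of the ER, at 299 and 312 CPM against 184 and 154 CPM. Igfbp4, which encodes an insulin-like growth factor binding protein, was lower, at 72.7 and 101 CPM against 220.1 and 175 CPM. Gja1, the connexin 43 gene of astrocytes and quiescent stem cells, stood at 2.06 CPM in young high-score cells, from 4 UMIs, and at 14.7 CPM in aged ones, against 21.4 and 21.0 CPM in the other cells.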
